A study of Danio rerio with 11 samples.

Results

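Genes that copy DNA or divide the cell were followed across 11 liver samples of zebrafish larvae, each hybridised to 1 array. They were chosen by symbol alone: mcm, rfc, orc, cdk, plk, aurk, bub, cenp, kif and top2 genes, the A, B, D and E cyclins, numbered cdc genes other than cdc42, and pcna. This gave 88 of the 7792 genes that the array names with a single symbol. Of the 88, 47 have a textbook role in S phase or mitosis and are called the core genes here. The other 41 were kept apart by a chosen division that is partly arbitrary. They hold 10 kinesins or kinesin partners outside the chosen spindle set, among them kif2a, and 8 other cyclin-dependent kinases or partners, among them cdk7. Some of these may also act in division. Another 7 genes, among them cdc5l and cdk5rap3, were grouped as matched by letters alone, and some of them may act in division too. The 41 also hold regulators of the cycle, such as cyclin D1 (ccnd1), inhibitors of cyclin-dependent kinases, and cdc23, cdc26 and cdc27, subunits of the anaphase-promoting complex. Among the best known division genes, mcm6, aurkb, bub1, top2a and cdkn1a were not measured under these names.

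The azacytidine group held 4 samples of genotype ahcy +/+ from larvae that received 1 mM azacytidine, an analogue of cytidine that inhibits DNA methyltransferases, into the yolk at 2 dpf (days post fertilisation). The mutant group held 3 samples of genotype ahcy -/- with vehicle as the agent. The control group held 4 samples of genotype ahcy +/+ with vehicle. Injection was at 2 dpf in all groups. Livers were removed with forceps at 4 dpf in all groups, and RNA was amplified in 2 rounds. The gene ahcy encodes S-adenosylhomocysteine hydrolase, which clears the by-product of methylation reactions. The labels name neither the ahcy allele nor the clutches or pools behind the samples. The p-values therefore reflect only how much these samples vary, and that variation may be technical.

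Before S phase, the origin recognition complex (Orc proteins) and Cdc6 load the Mcm helicase on DNA, and the kinase Cdc7 and the factor Cdc45 help to fire it. At the fork, the Rfc clamp loader places the Pcna ring that holds DNA polymerase on its template. Cdk1 with B cyclins, Plk1 and Aurora kinases then drive mitosis, in which Cenp proteins build the kinetochore, Bub proteins delay anaphase, Cdc20 starts it, and a set of kinesins builds the spindle. These roles are known mostly from yeast, frog eggs and human cells. In bulk liver RNA, fewer dividing cells and less RNA per cell cannot be told apart.

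Values are log2 levels as deposited, and a difference of 1 is a 2-fold change. The hepatocyte marker list (12 of 15 genes measured) averaged 12.4 to 12.6 on azacytidine arrays. It averaged 9.98 to 10.8 on mutant arrays and 11.65 to 11.99 on control arrays. The hepatocyte list mean was thus above the array median on every array, and it was lower in mutants. Single markers could lie lower: ahsg1 and hpxb averaged 4.85 and 6.02 on mutant arrays, whose medians were 6.13 to 6.17. The 16 neural markers averaged 4.75 to 5.31 on azacytidine arrays and 6.52 to 7.29 on mutant arrays. On control arrays they averaged 5.22 to 8.11, with controls 4 and 8 standing apart at 8.11 and 7.12. The 10 epidermis markers averaged 7.18 to 8.55, 10.4 to 11.3 and 8.52 to 9.20 in azacytidine, mutant and control arrays. The 12 muscle markers averaged 8.90 to 9.74, 11.1 to 11.7 and 9.66 to 10.5 in the same order. On every mutant array the muscle mean lay above the hepatocyte mean, so the mutant samples were not shown to be mainly liver. The 9 leukocyte markers averaged 6.97 to 7.52 on azacytidine arrays, 6.37 to 6.99 on mutant arrays and 5.73 to 6.52 on control arrays. The 12 exocrine pancreas markers averaged 5.26 to 7.20 on azacytidine arrays, 4.95 to 6.34 on mutant arrays and 5.48 to 7.58 on controls 1, 4 and 8, with control 2 standing apart at 10.3. The 3' minus 5' difference of the acta1 control probe sets, which RNA length can change, was 1.88 to 4.02 on azacytidine arrays. It was 5.59 to 6.21 on mutant arrays and 3.16 to 4.92 on control arrays. Its group means ranked as the muscle marker means did, so RNA length and muscle content cannot be told apart in it. The part of these tissue and RNA differences in the results below was not tested except where a value is given. The ahcy probe set read 12.34, 12.34, 12.06 and 12.61 on azacytidine arrays, 12.11, 11.47 and 11.50 on mutant arrays, and 12.45, 12.30, 12.36 and 12.47 on control arrays. Its level fell by 0.70 ± 0.16 (SE) in mutants against controls (adjusted p = 0.017), and since the site of the mutation is not stated, this does not check the genotype.

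Most core genes had a higher mean in azacytidine livers than in controls, although no single gene passed the test and the array means overlapped. Their mean level was 6.56, 6.89, 6.61 and 6.71 on azacytidine arrays 1, 2, 5 and 6 and 6.36, 6.05, 6.62 and 6.43 on control arrays 1, 2, 4 and 8. Azacytidine 2 was the highest array, control 2 was the lowest, and control 4 lay above azacytidine 1 and 5. The difference in the core mean was not tested, and genes measured on the same arrays are not replicates. Control 2 is the array with the high exocrine pancreas markers. The leukocyte and hepatocyte marker means were both higher on every azacytidine array than on any control. The part of any of these in the core difference was not tested, beyond the value without control 2 given below. The median difference, azacytidine minus control, was 0.36 over the 47 core genes and 39 of them were positive. Over all 7792 genes the median was -0.03, with 3583 positive. The 41 remaining genes had a median of -0.14 with 15 positive, and of 0.02 with 21 positive without controls 4 and 8. Differences are the fitted limma differences of group means, ± SE, and "adjusted p" is the Benjamini-Hochberg value over all 12784 probe sets. A gene is said to have risen or fallen at an adjusted p under 0.05. At that threshold 0 of 88 genes were called, beside a background of 0.579% of all probe sets. Without control 2 or without mutant 3 the count was 1, cdk5r2a, and the background of those fits is not given. At an unadjusted p under 0.05, 14 of the 88 were higher and 8 lower, beside backgrounds of 5.23% and 9.93%. The core genes held 13 of the 14 higher ones and 1 of the 8 lower ones, the helicase subunit mcm7. The division into core and other genes was chosen with earlier results of these data known, so this contrast is a description only. All 4 azacytidine arrays lay above all 4 controls for 8 of the 88 genes, 6 of them core, beside a background of 3.71% of probe sets. They lay below all 4 controls for 3 of the 88, 0 of them core, beside a background of 5.26%.

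**Figure D1:**
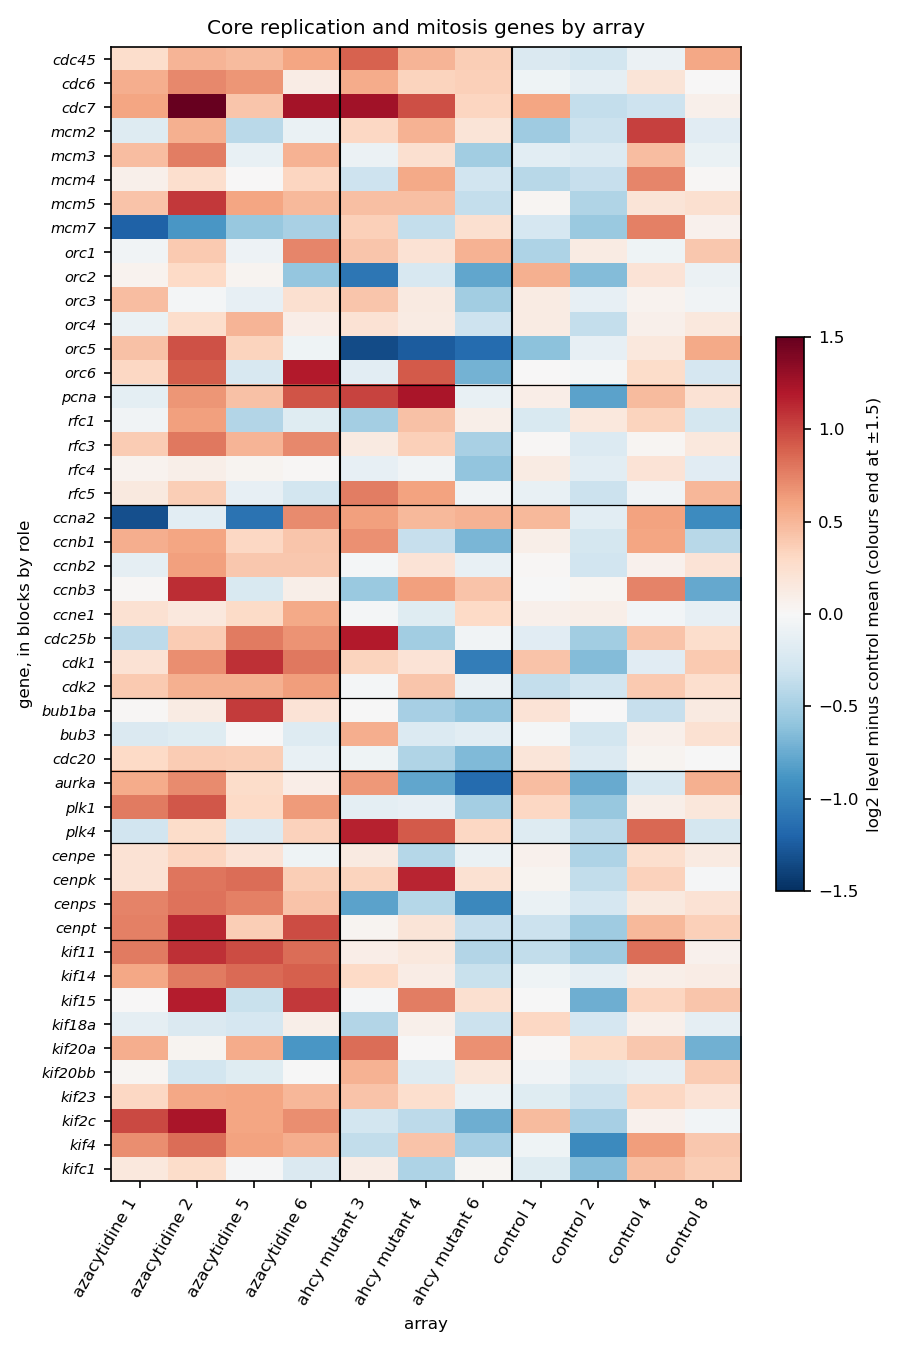
Levels of the 47 core genes on each of 11 arrays (columns) as the log2 difference from the mean of the 4 control arrays, with genes (rows) in blocks by role; colours end at 1.5 in either direction. The azacytidine columns are mostly red in the centromere and spindle kinesin blocks, mcm7 is blue in all 4, and the mutant columns are blue for orc5 and cenps.

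The highest medians by role were those of the kinetochore and spindle genes. The 4 centromere genes were all positive in azacytidine minus control, with a median of 0.62, and the 10 spindle kinesins had 8 positive and a median of 0.49. The level of kif14, a kinesin of cytokinesis, was 5.67, 5.87, 5.94 and 5.99 on azacytidine arrays and 5.02, 4.96, 5.18 and 5.20 on control arrays. The groups did not overlap, and the difference was 0.78 ± 0.18 (adjusted p = 0.073). After centring each array on its median it was 0.88 (adjusted p = 0.042), which passes. The level of kif2c, which depolymerises microtubules at kinetochores, was 6.24, 6.47, 5.84 and 5.95 on azacytidine arrays and 5.72, 4.75, 5.32 and 5.21 on control arrays. Every azacytidine array again lay above every control at this probe set, with a difference of 0.88 ± 0.23 (adjusted p = 0.11). The other 2 probe sets of kif2c differed by -0.18 and 0.26 with overlap, and the mean over the 3 differed by 0.32 (adjusted p = 0.40). The centromere gene cenps read 5.20, 5.27, 5.21 and 4.88 on azacytidine arrays, against 4.36, 4.20, 4.6 and 4.67 on control arrays. This gave 0.68 ± 0.18 (adjusted p = 0.12), without overlap. The genes cenpt and kif11, chosen after their values were seen, had differences of like size but overlapped the controls. The kinetochore gene cenpt differed by 0.81 ± 0.28 (adjusted p = 0.19). The motor kif11, which pushes spindle poles apart, read 8.27 to 8.58 on azacytidine arrays and 6.95, 7.12, 7.55 and 8.32 on control arrays, the last being control 4, and differed by 0.92 ± 0.30 (adjusted p = 0.17).

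Origin genes leaned the same way, with exceptions inside the helicase. Of the 15 origin genes 12 were positive in azacytidine minus control, and the median was 0.41. The kinase gene cdc7, also chosen after its values were seen, had the largest positive difference of the 88 at 1.01 ± 0.34 (adjusted p = 0.18), from 6.08, 7.28, 5.91 and 6.74 on azacytidine arrays and 6.08, 5.14, 5.18 and 5.57 on control arrays. The 5 measured helicase subunits differed in size and sign. The subunit mcm5 read 5.96, 6.59, 6.13 and 6.02 on azacytidine arrays and 5.56, 5.08, 5.73 and 5.77 on control arrays, a difference of 0.64 ± 0.25 (adjusted p = 0.24) without overlap. The subunit mcm7 read 8.10, 8.43, 8.74 and 8.82 on azacytidine arrays and 9.05, 8.75, 10.06 and 9.37 on control arrays, a difference of -0.79 ± 0.30 (adjusted p = 0.24), with 1 azacytidine array just above the lowest control. The subunits mcm3 and mcm4 differed by 0.41 ± 0.26 and 0.17 ± 0.30, and a second, dimmer probe set of mcm3 differed by -0.04 ± 0.20. The difference of mcm2 was -0.04 ± 0.34 as deposited, and it was 0.0625 with arrays centred and 0.39 without controls 4 and 8. At the fork, pcna read 10.37, 11.18, 10.96 and 11.46 on azacytidine arrays and 10.62, 9.72, 10.99 and 10.74 on control arrays, and it differed by 0.47 ± 0.35 (adjusted p = 0.58) with wide overlap.

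Cyclins and mitotic kinases had positive medians too. Of the 9 cyclins and their kinases 8 were positive in azacytidine minus control, with a median of 0.36. The mitotic kinase cdk1 read 7.39, 7.87, 8.27 and 7.96 on azacytidine arrays and 7.60, 6.52, 7 and 7.57 on control arrays, which overlap, and differed by 0.70 ± 0.36 (adjusted p = 0.39). Its partner ccnb1 differed by 0.47 ± 0.32 (adjusted p = 0.54). The kinase plk1 read 7.34, 7.49, 6.85 and 7.19 on azacytidine arrays and 6.86, 5.99, 6.64 and 6.73 on control arrays, a difference of 0.66 ± 0.25 (adjusted p = 0.22). The spindle pole kinase aurka differed by 0.41 ± 0.41 (adjusted p = 0.72). The 95% intervals of cdk1, ccnb1 and aurka included 0, and that of plk1 was 0.13 to 1.20. The 9 genes grouped under the checkpoint and anaphase promotion had a median of -0.13 with 4 positive. That group also holds cdc34a, cdc34b and cdc14b, so its name does not describe all of its genes.

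Leaving out 1 array at a time kept the core median between 0.25, without control 2, and 0.44, without control 4. With each array centred on its median the core median was 0.46, with 42 of 47 positive, and without controls 4 and 8 together, chosen after the data were seen, it was 0.55, with 43 positive. With the neural, muscle and epidermis marker means as covariates, which leaves 5 residual degrees of freedom, it was 0.61, with 37 positive. That fit holds no hepatocyte, leukocyte or pancreas markers. Centring moved the median of all probe sets from -0.055 to 0.0475 in azacytidine minus control, from 0.0825 to -0.0325 in mutant minus control, and from 0.14 to -0.08 in mutant minus azacytidine.

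Kinesins outside the chosen spindle set and the other cyclin-dependent kinases had negative medians in azacytidine minus control. The 8 such kinases and partners had a median of -0.19 with 2 positive, while the 7 genes grouped by letters alone had a median of 0.01 with 4 positive. All 10 kinesins outside the spindle set were negative in azacytidine minus control as deposited, with a median of -0.30; with arrays centred 1 of the 10 turned positive. Without controls 4 and 8, the controls with the highest neural marker means, their median was 0.01 and 5 of 10 were positive. The gene cdk5r2a, which encodes an activator of the neuronal kinase Cdk5, had the smallest p of the 88. It read 3.81, 4.49, 3.11 and 4.41 on azacytidine arrays and 7.27, 5.80, 10.36 and 8.92 on control arrays. The groups were far apart, and the controls ranked as they did for the neural marker mean. The difference was -4.13 ± 0.83 (adjusted p = 0.053), and it passed with arrays centred (-4.03, adjusted p = 0.042). Without control 2 it was -4.90 (adjusted p = 0.011). Without control 4, the control with the highest neural marker mean, it was -3.38 and did not pass. The kinase cdk5, named outside the rule given at the end, differed by -0.80 ± 0.24 (adjusted p = 0.15), with every azacytidine array below every control.

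**Figure D2:**
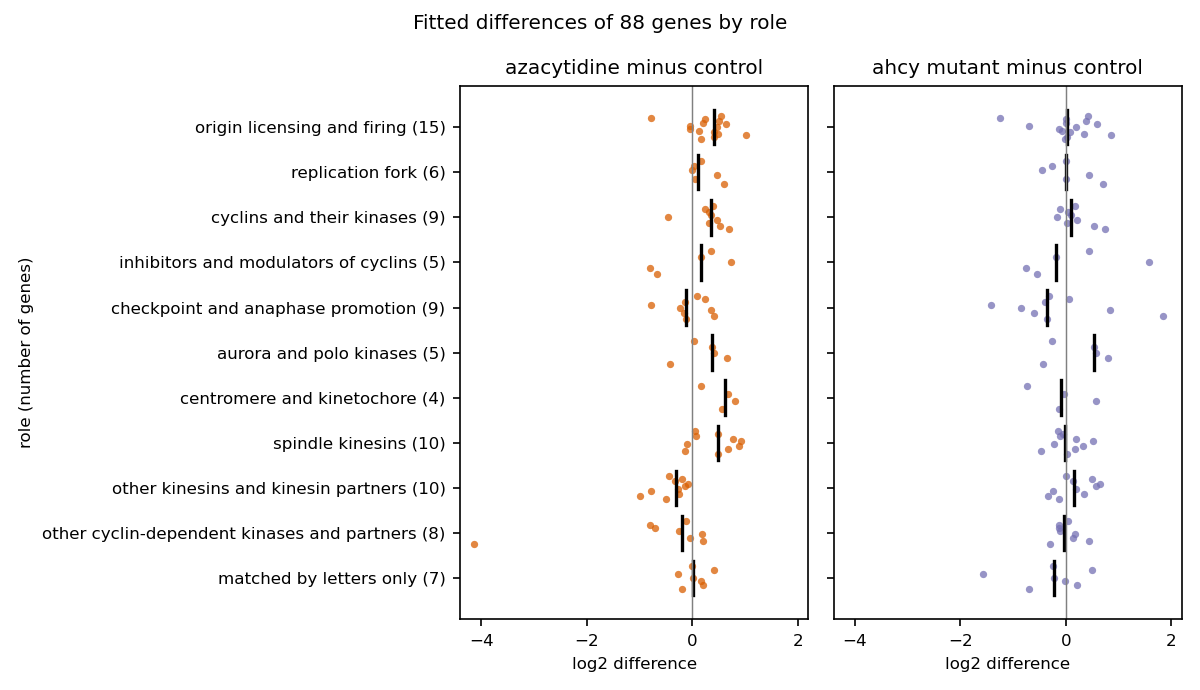
Fitted log2 differences of the 88 genes by role (rows; the number of genes in each is in brackets), for azacytidine minus control (left) and ahcy mutant minus control (right); points are genes and black bars are medians. On the left the centromere and spindle kinesin medians are at 0.62 and 0.49 and the other kinesins at -0.30, with cdk5r2a alone at -4.13; on the right the medians of origin, fork and spindle genes lie within 0.02 of 0.

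In the ahcy mutants the core genes were centred near the controls when all 4 controls were used. Their core mean level was 6.54, 6.51 and 6.16 on mutant arrays 3, 4 and 6, within the control range of 6.05 to 6.62. The core median difference, mutant minus control, was 0.02 with 28 of 47 positive as deposited, and it turned to -0.10 with 17 positive when arrays were centred. Over all genes the median was 0.04 with 4174 positive, as deposited with all 4 controls. Without controls 4 and 8 the core median was 0.21 with 34 positive. The other 41 members then moved the same way, from -0.02 to 0.14. Calls among the 88 were then 4 higher and 2 lower, of which 3 and 2 lay outside the core. The background share of that fit is not given, so these values are no result about the core. With all 4 controls, 1 of the 88 members was called higher and 4 lower, or 5.68%. The background was 12.1% of probe sets in either direction, 6.23% higher and 5.87% lower. Over the 7792 genes, with 1 probe set each, 505 were called higher and 559 lower, or 13.7%. The share of lower calls is thus close to the background and is no result about these genes. Without control 1, mutant 3 or mutant 4 the count of 5 was 3, and without mutant 6 it was 1, with no background given for these fits. With the neural, muscle and epidermis marker means as covariates, which leaves 5 residual degrees of freedom, it was 0, and 3 of all probe sets were called. The core median was then 0.13 with 29 positive. Muscle and epidermis means were higher on every mutant array than on any control, so this fit cannot separate tissue from genotype. With arrays centred the background turned from 797 higher and 750 lower probe sets to 618 higher and 890 lower. The azacytidine and mutant comparisons share the 4 controls, so agreement or contrast between them is not independent.

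**Figure D3:**
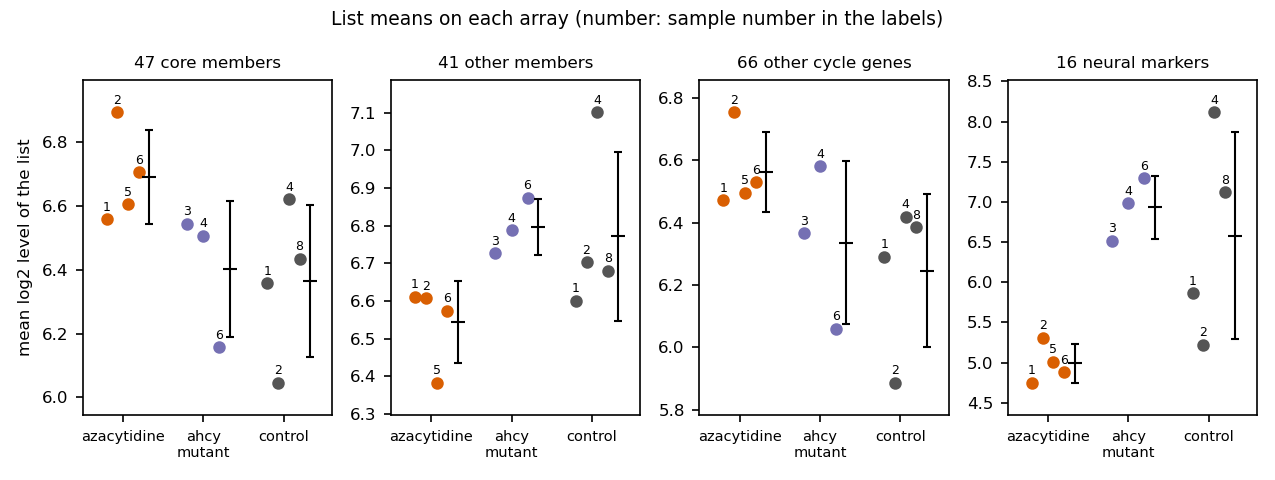
Mean log2 level of 4 gene lists on each array: 47 core genes, 41 other members, 66 further replication and division genes, and 16 neural markers. Points are arrays with their sample numbers, in the order azacytidine, ahcy mutant, control, and bars are the mean ± SD of each group; the vertical scales differ and do not start at 0. Core means are 6.56 to 6.89 in azacytidine, 6.16 to 6.54 in mutants and 6.05 to 6.62 in controls, and control 4 is the highest array for the 41 other members and for the neural markers.

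Of the core genes, orc5 and cenps fell in the mutants, but neither passed without controls 4 and 8 (-0.89, adjusted p = 0.080, and -0.55, adjusted p = 0.14). The origin recognition subunit orc5 read 4.96, 5.05 and 5.14 on mutant arrays and 5.69, 6.18, 6.46 and 6.87 on control arrays. The mutant values were close together and all below the controls, and the difference was -1.25 ± 0.30 (adjusted p = 0.019). The other 5 subunits, named outside the rule given at the end, did not pass. The subunit orc2 differed by -0.70 ± 0.31 (adjusted p = 0.17), and orc1, orc3, orc4 and orc6 by 0.39, 0.01, 0.01 and 0.02. The centromere gene cenps, whose product also serves the Fanconi anaemia repair pathway, read 3.66, 4.03 and 3.49 on mutant arrays and 4.36, 4.20, 4.6 and 4.67 on control arrays. It fell by 0.73 ± 0.20 (adjusted p = 0.034). The mutant levels lie below the 10th percentile of their arrays, and with levels held at that percentile the difference was -0.04 (adjusted p = 0.89), so the size of this fall rests on dim signals.

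The other 3 calls were genes outside the core. The ubiquitin-conjugating enzyme gene cdc34a, which works with SCF ligases on cell cycle inhibitors, read 6.75, 7.76 and 8.73 on mutant arrays and 5.96, 5.59, 6.15 and 5.96 on control arrays. It rose by 1.83 ± 0.39 (adjusted p = 0.011), with a wide spread among mutants and no overlap, and it passed whichever array was left out (1.34 to 2.33). The phosphatase gene cdc14b read 4.67, 5.36 and 5.29 on mutant arrays and 6.86, 6.65, 6.77 and 5.79 on control arrays. It fell by 1.41 ± 0.34 (adjusted p = 0.020), with control 8 the nearest to the mutants. The gene cdk5rap3, named for binding a Cdk5 activator and known from the UFMylation pathway, read 9.11, 7.71 and 7.48 on mutant arrays and 9.91, 10, 9.73 and 9.04 on control arrays. It fell by 1.57 ± 0.36 (adjusted p = 0.016), although mutant 3 lay above control 8. Calls rested on few arrays. Without mutant 4 or mutant 6, orc5 no longer passed (-1.25 and -1.30, adjusted p = 0.057 and 0.058), nor did cdk5rap3 (-1.38 and -1.26, adjusted p = 0.067 and 0.076). The call of cdc14b was lost without control 1, control 2, mutant 3 or mutant 6, and its difference ranged over -1.65 to -1.19 with 1 array left out. That of cenps was lost without control 1, control 4, control 8, azacytidine 2, mutant 3 or mutant 6, over -0.88 to -0.61.

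The canonical proliferation genes showed no call in mutants. For pcna the mutant arrays read 11.53, 11.74 and 10.41, against 10.62, 9.72, 10.99 and 10.74 on control arrays, a difference of 0.71 ± 0.37 (adjusted p = 0.26) with mutant 6 below all but 1 control. The differences of mcm2, mcm3, mcm4, mcm5 and mcm7 were 0.34, -0.13, -0.01, 0.18 and 0.08. The differences of cdk1, ccnb1, plk1 and aurka were -0.17, -0.12, -0.26 and -0.43. Each of the 9 is smaller than its SE, with an adjusted p of 0.59 or more; the widest interval, that of aurka, runs from -1.38 to 0.53, so changes of that size are not excluded. In the mutant group array 6 was the lowest for cdk1 (6.13, against 7.51 and 7.38) and aurka (6.32, against 8.13 and 6.69). The inhibitor genes cdkn1ca and cdkn1bb, of the family that blocks cyclin-dependent kinases, are named in this comparison outside the rule given at the end. They differed by 1.58 ± 0.48 (adjusted p = 0.053) and 0.43 ± 0.21 (adjusted p = 0.23). With 1 array left out the difference of cdkn1ca was 1.33 to 1.98. Of these fits only that without control 4 passed (1.98, adjusted p = 0.011).

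Set against each other, the mutant and azacytidine livers differed in 20 of the 88 genes, 8 higher and 12 lower in mutants. That is 22.7%, beside a background over all probe sets of 29.4% in either direction, 18.2% higher and 11.1% lower. Over the 7792 genes, with 1 probe set each, 1355 were called higher and 1020 lower, or 30.5%. With arrays centred the members were 7 higher and 18 lower, and the background turned from 2329 higher and 1424 lower to 1629 higher and 2068 lower. In the core none rose and 7 fell, or 14.9%, against 8 risen and 5 fallen among the other members, or 31.7%. The core share of lower calls is close to the background of 11.1%, so that count is no result about the core. The core median was -0.28 with 13 of 47 positive, beside 0.07 over all genes. With the marker means as covariates no member was called, and 1 of all probe sets was. The core median in that fit was -0.50 with 18 of 47 positive. Muscle and epidermis means were higher on every mutant array than on any azacytidine array, so the fit cannot separate tissue from group. The 7 core genes were cenps, orc5, kif2c, kif14, plk1, kif11 and cdc20, of which kif14, kif11 and cdc20 stand outside the 12 smallest p values and are named after their values were seen.

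The mitotic genes among the 7 were chosen by this comparison. Against controls, the mutant means of kif14 (5.12, against 5.09) and kif11 (7.43, against 7.49) lay close to the control means, and the plk1 arrays overlapped. The kinesin kif2c read 4.97, 4.86 and 4.52 on mutant arrays, against the azacytidine values given above, and fell by 1.34 ± 0.25 (adjusted p = 0.0026). It has 3 probe sets, and averaged over them the difference was -0.45 (adjusted p = 0.081), since the dimmer probe sets did not follow. The kinase plk1 read 6.41, 6.43 and 6.05 on mutant arrays, all below the 6.85 to 7.49 of azacytidine arrays. It fell by 0.92 ± 0.27 (adjusted p = 0.022), a call lost without azacytidine 1 (-0.88), azacytidine 2 (-0.83) or mutant 6 (-0.80). The motor kif11 read 7.59, 7.64 and 7.05 on mutant arrays, below the azacytidine arrays throughout, and fell by 0.98 ± 0.33 (adjusted p = 0.041). The kinesin kif14 fell by 0.75 ± 0.19 (adjusted p = 0.013). The anaphase activator cdc20 read 5.59, 5.20 and 4.99 on mutant arrays and 5.95, 6.03, 6.02 and 5.54 on azacytidine arrays, with mutant 3 above azacytidine 6. Its adjusted p was 0.043 for a fall of 0.62 ± 0.21. Calls of kif11 and cdc20 were fragile. That of kif11 was lost without control 8 or any 1 of the 7 azacytidine and mutant arrays (-1.09 to -0.79). That of cdc20 was lost without control 4, control 8, azacytidine 1, 2 or 5, or mutant 4 or 6 (-0.79 to -0.49), and that of kif14 without mutant 6 (-0.57).

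The centromere gene cenps fell by 1.41 ± 0.20 in mutants against azacytidine (adjusted p = 0.00054). Its mutant levels are the dim ones described above, and with levels held at the 10th percentile the fall was by 0.70 (adjusted p = 0.0034). The origin gene orc5 read 6.74, 7.26, 6.63 and 6.24 on azacytidine arrays, above every mutant value given earlier, and fell by 1.67 ± 0.30 (adjusted p = 0.0021).

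**Figure D4:**
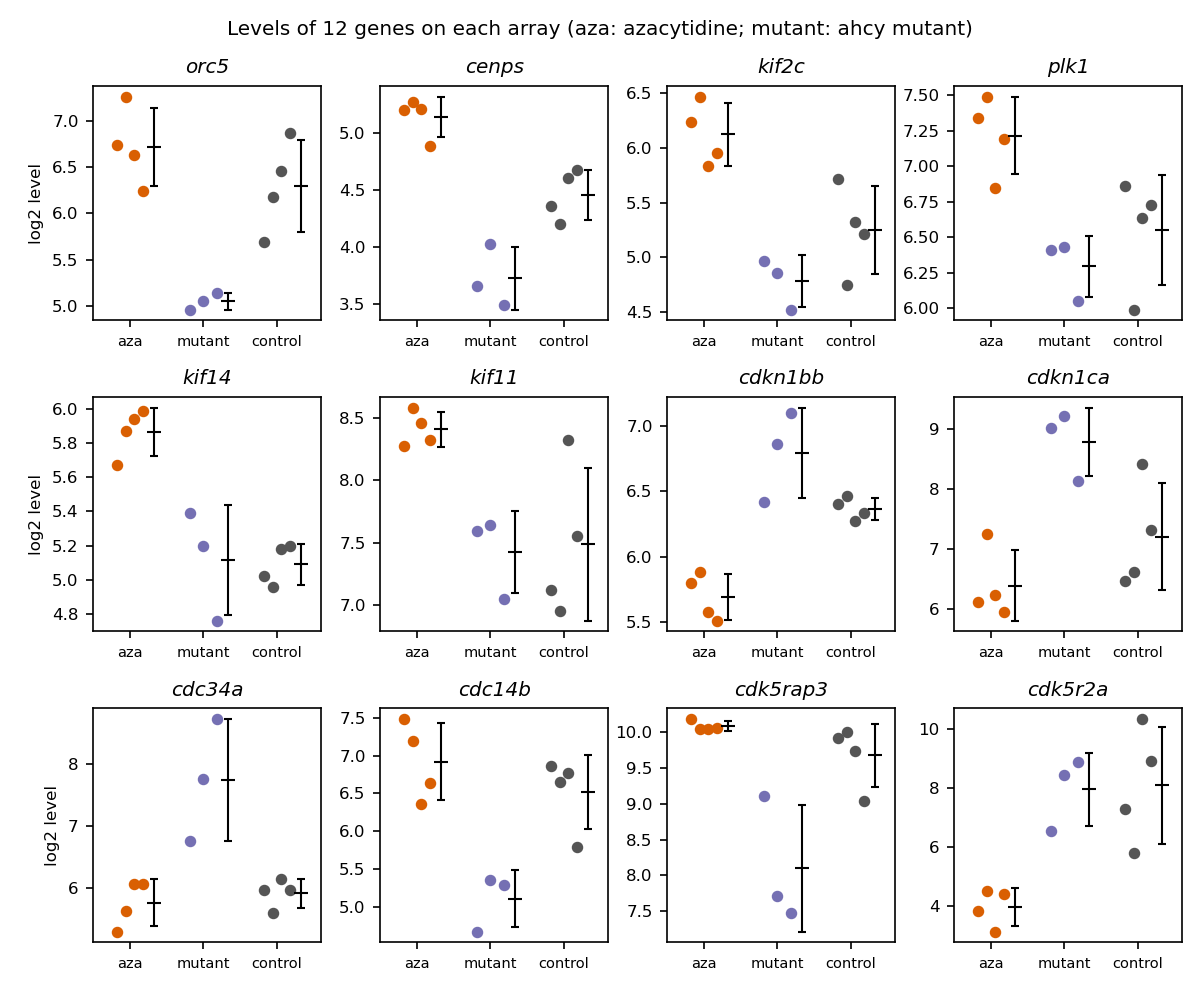
Log2 levels of 12 genes on each array in azacytidine, ahcy mutant and control livers; points are arrays, bars are the mean ± SD of the group, and the vertical scales differ and do not start at 0. In orc5 and cenps the 3 mutant arrays lie below all others, in kif14 the 4 azacytidine arrays lie above all others, and in cdk5r2a the 4 azacytidine arrays lie at or below 4.49 while mutants and controls lie at 5.80 or higher.

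Inhibitors and modulators of cyclins carried calls in both directions. The inhibitor gene cdkn1bb read 6.42, 6.86 and 7.10 on mutant arrays and 5.80, 5.88, 5.58 and 5.51 on azacytidine arrays, and it rose by 1.1 ± 0.21 (adjusted p = 0.0032). The controls, at 6.27 to 6.46, lay above every azacytidine array. That difference, chosen after its values were seen, was -0.67 ± 0.20 in azacytidine minus control (adjusted p = 0.14). The second probe set of cdkn1bb rose by 1.12 in mutants against azacytidine (adjusted p = 0.0082). The inhibitor gene cdkn1ca read 9.01, 9.21 and 8.14 on mutant arrays and 6.13, 7.26, 6.24 and 5.96 on azacytidine arrays, and it rose by 2.39 ± 0.48 (adjusted p = 0.0039). Control 4, at 8.42, lay within the mutant range, above mutant 6. The gene ccndbp1, whose product binds cyclin D1, read 4.38, 4.02 and 3.98 on mutant arrays and 5.07, 5.16, 5.09 and 6.33 on azacytidine arrays, and it fell by 1.29 ± 0.29 (adjusted p = 0.0071). The gene cdk2ap2, named for its association with Cdk2, fell by 1.12 ± 0.25 (adjusted p = 0.0063), from 7, 6.45 and 7 on mutant arrays and 7.73 to 8.15 on azacytidine arrays.

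Of the remaining called members, cdc34b, kifc3, kif5aa and cdc123 lie outside the 12 smallest p values and were chosen after their values were seen. The stress-inducible kinase gene plk2b read 5.74, 5.94 and 5.84 on mutant arrays and 5.20, 5.07, 4.58 and 4.67 on azacytidine arrays, a rise of 0.96 ± 0.20 (adjusted p = 0.0045). The genes cdc34a and cdc34b rose by 1.98 ± 0.39 (adjusted p = 0.0034) and 1.62 ± 0.39 (adjusted p = 0.0092), while cdc14b and cdk5rap3 fell by 1.82 and 1.98. The genes cdk5r2a, kif5aa and kifc3 rose by 4.00 ± 0.90, 1.42 ± 0.49 and 1.48 ± 0.38. The neural marker mean was also higher on every mutant array than on any azacytidine array, and kif5aa, a neuronal kinesin, did not pass with arrays centred (1.20, adjusted p = 0.069), without control 8, without any 1 of the azacytidine arrays, or without mutant 3 or 6 (1.13 to 1.69). The gene cdc123, an assembly factor of translation initiation, fell by 0.91 ± 0.25 (adjusted p = 0.019), a call lost without azacytidine 1, azacytidine 2 or mutant 3 (-1.02 to -0.78).

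Replication and division genes outside the symbol rule, 66 measured of 89 listed, gave these values. In azacytidine minus control the median was 0.34 and 57 of 66 differences were positive, beside -0.03 and 3583 of 7792 over all genes. Of the 66, 0 passed the adjusted threshold, beside a background of 0.579%. At an unadjusted p under 0.05, 9 were higher (13.6%) and 0 lower, beside backgrounds of 5.23% and 9.93%. The list was chosen with earlier results of these data known, so it is no independent check of the core genes. In mutant minus control none was called, and the median was 0.09 as deposited and -0.03 with arrays centred. In mutant minus azacytidine the median was -0.23, and 5 were called, all lower, or 7.58%. This is beside the background of 11.1% lower and 29.4% in either direction, so the count itself is no result about the list. These were anapc10, a subunit of the anaphase-promoting complex (-1.26 ± 0.24, adjusted p = 0.0028), and prc1b, which bundles midzone microtubules (-0.86 ± 0.19, adjusted p = 0.0071). The others were cdca8 and birc5a, subunits of the chromosomal passenger complex (-1.33 ± 0.31, adjusted p = 0.0085, and -0.93 ± 0.25, adjusted p = 0.018), and the spindle gene tacc3 (-0.93 ± 0.25, adjusted p = 0.016). With arrays centred 14 of the 66 were lower and none higher, beside 2068 lower and 1629 higher of all 12784 probe sets.

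Among genes that are not members, those whose levels followed the core mean most closely over the 11 arrays were gins2 (Pearson r = 0.91), ttf2 (r = 0.88) and glrx (r = 0.87). The replication helicase factor gins2 read 7.41, 7.79, 7.27 and 7.44 on azacytidine arrays, 7.41, 6.83 and 6.15 on mutant arrays, and 6.77, 6.21, 7.16 and 7.40 on control arrays. These are the highest of all genes and share the same arrays as the core mean, so they are a description.

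Probe sets of 1 gene did not always agree. Of the 88 genes 13 had several probe sets, 20 besides those used. The kinase gene cdk8, of the Mediator complex, differed by 0.04 ± 0.34 in mutant minus control at the probe set used. At its other probe set, chosen after its values were seen, it differed by -1.54 ± 0.22 (adjusted p = 0.0012). None of the 20 was called in azacytidine minus control, 1 was called in mutant minus control, and 1 higher and 3 lower were called in mutant minus azacytidine.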

How the data were processed

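RNA from 11 liver samples was measured on 1-colour Affymetrix zebrafish arrays. The authors deposited log2 levels, 1 per probe set and array; the submitters' processing notes name GCRMA and Partek without versions. GCRMA removes background by probe sequence, normalises and summarises, which leaves low levels uncertain. Filters and build are not given in the sources used here. Precision is limited by how many arrays there are.

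Of 12830 probe sets 46 controls were left out. Groups came from titles and characteristics. Symbols came from the platform annotation: 8994 probe sets had 1 symbol, 110 several and 3680 none. The probe set with the highest mean stood for its gene. Of the 88 members 87 matched a RefSeq gene ID. No sequence or position is reported.

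All 12784 probe sets were fitted with limma 3.58.1 in R 4.3.3 as 3 group means (8 residual degrees of freedom) with a variance trend, 2-sided, with Benjamini-Hochberg adjustment over all probe sets in each comparison. On simulated data with 200 changed probe sets, 36.6% of log2 changes of 1 and 85% of changes of 2 were recovered for azacytidine minus control, and 30.8% and 79.8% for mutant minus control. Alternatives were array centring, loess, a filter on dim probe sets, probe set means, 2-group fits, blocks, marker covariates and left-out arrays.

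Members and lists were chosen with earlier results of these data known. Always named were pcna, the mcm2 to mcm7, cdk1, ccnb1, plk1, aurka and similar genes, then the called members (the 12 smallest p where more), or the 4 smallest p where fewer than 4 were called. Members given with values outside this rule are marked.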

Additional observations from a re-analysis of the deposited data

Results flagged for a closer look

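In 4 of 62 groups of 4 arrays tested over the 31 named members, 1 array lay far from the others; chance alone gives about 5% of groups. The criterion is the gap to the nearest array over the range of the group, above Dixon's critical value. For ccndbp1 azacytidine 6 was the highest array (6.33, next 5.16, ratio 0.929). For cdc20 azacytidine 6 was the lowest (5.54, next 5.95, ratio 0.837). For cdk5rap3 azacytidine 1 was the highest (10.18, next 10.05, ratio 0.867), within a narrow range. For mcm3 control 4 was the highest (7, next 6.43, ratio 0.851). These are values and no cause was tested.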

How the results depend on the processing

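Numbers of called genes among the 88 depended on single arrays and settings. In azacytidine minus control the count was 0 to 1 with 1 array left out (1 without control 2 or mutant 3), 2 with arrays centred or loess normalised, 1 with probe sets under the 25th percentile removed, 1 with a random replicate block, 1 with dim levels held at the 10th percentile (added after seeing the data), and 0 elsewhere. In mutant minus control it was 1 to 6 with 1 array left out (1 without mutant 6; 3 without control 1, mutant 3 or mutant 4), 3 when only the 2 groups were fitted, 0 with a fixed replicate block and 0 with marker covariates. In mutant minus azacytidine it was 15 to 22 with 1 array left out, 1 with the fixed block and 0 with covariates. The fixed block leaves 2 residual degrees of freedom and calls 0, 9 and 219 probe sets in all, and the covariate fit calls 8, 3 and 1. Deviations of same-numbered arrays correlated at 0.02, -0.21, 0.03 and -0.004, and those of differently numbered arrays at -0.23 to 0.21. So few pairs cannot exclude a shared clutch, day or batch. The labels do not explain the numbers, and the block was left out of the main fit.

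The median over the 88 was 0.08 to 0.21, -0.035 to 0.13 and -0.18 to -0.06 with 1 array left out. It moved to -0.37 (centred) and -0.32 (loess) in mutant minus azacytidine, and to -0.15 (fixed replicate block) and 0.17 (without controls 4 and 8) in mutant minus control. Directions turned for genes that were not called. For mcm2, azacytidine minus control, the values were 0.0625 (centred), 0.089 (loess), 0.32 (fixed block), 0.74 (covariates) and 0.39 (without controls 4 and 8), and -0.23 to 0.30 with 1 array left out. In mutant minus control, mcm7 was -0.036 (centred), -0.63 (fixed block) and -0.15 (covariates). Covariates turned mcm4 to 0.13, cdk1 to 0.56, ccnb1 to 0.92 and aurka to 0.42. Without controls 4 and 8, mcm3 was 0.057 and mcm4 0.37. With 1 array left out the ranges were -0.31 to 0.0725 for mcm3, -0.30 to 0.24 for mcm4, -0.11 to 0.33 for mcm7, -0.42 to 0.27 for cdk1 and -0.52 to 0.17 for ccnb1. In mutant minus azacytidine covariates turned 3 called genes, cdc34a to -0.13, cdk5r2a to -0.79 and cdc20 to 0.34. The cause of these changes was not tested.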
